A study of Rattus norvegicus with 4 samples.

Results

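The receptors described here are the 4 opioid-family receptors Oprm1, Oprd1, Oprk1 and Oprl1 and the cannabinoid receptors Cnr1 and Cnr2, measured in the dorsal horn of the rat spinal cord. Probes were taken as theirs where the transcript accession printed with the probe belongs to 1 of these 6 genes. All 6 genes were found, with 11 probes on 37 spots, among the 30367 probes of the array, and all 6 were among the 22817 genes that passed the filter on dim probes and were tested. The study set 2 arrays of oxaliplatin-treated rats beside 2 arrays of vehicle-treated rats, all from males aged 6 weeks, at day 10. Oxaliplatin is a platinum chemotherapy drug known for causing painful neuropathy. On every array, per the labels, the Cy5 dye marked RNA of the oxaliplatin- or vehicle-treated rats and the Cy3 dye marked RNA of untreated rats of the same sex and age, with no swap of dyes. The extract protocol mentions Cy3 only, so the receptors are given by Cy5/Cy3 ratio and also by single channel. The sources used here do not give the strain, the dose, the vehicle or the number of rats behind an array. The labels call the arrays biological replicates.

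Opioid and cannabinoid receptors are receptors of the cell surface that act through the inhibitory Gi/o family of G proteins. In the dorsal horn they sit on the endings of sensory fibres and on local neurons, where they close calcium channels, open potassium channels and so reduce release of transmitter. Oprm1 is the mu receptor, the main target of morphine, Oprd1 is the delta receptor for enkephalins and Oprk1 the kappa receptor for dynorphins. Oprl1 binds nociceptin, a related peptide, and is not blocked by naloxone. Cnr1 is the main cannabinoid receptor of neurons, and Cnr2 is known mostly from immune cells and microglia.

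Both channels of every array were read before any comparison. Medians over spots were 993 and 1023.5 in Cy5 on oxaliplatin replicates 1 and 2, against 913 and 948 on vehicle replicates 1 and 2. In Cy3 they were 494 and 283.5 on the oxaliplatin arrays, against 564 and 530 on the vehicle arrays, so oxaliplatin replicate 2 was the dimmest. Both oxaliplatin arrays came from 1 slide and both vehicle arrays from another, per the file headers. The oxaliplatin arrays also shared 1 scan entry there, while each vehicle array had its own. Slide, scan and treatment thus cannot be told apart. The p-values therefore rest only on the spread between arrays of the same group. That spread is pooled over both groups and drawn by limma toward the spread of all genes. The SEs of ratios and differences below come from the same moderated spread. Every one of 20 measured dorsal horn neuron markers (of 22 listed) was well above background in both channels on all 4 arrays. Of all probes, 82.6% to 85.4% were so in Cy5 and 76.8% to 88.1% in Cy3, by array. Markers listed for sensory ganglia were mostly brighter in Cy5 than in Cy3, and the source of their RNA was not tested. For the 11 measured sensory ganglion markers (of 13 listed) the median log2 Cy5/Cy3 ratio was 3.42 and 3.20 on the oxaliplatin arrays, against 3.40 and 3.48 on the vehicle arrays. Their summed normalised signal was 188087 and 175165 in Cy5 on the oxaliplatin arrays and 202969 and 203952 on the vehicle arrays. In Cy3 the same sum was 10448 and 16785 on the oxaliplatin arrays and 15648 and 9668 on the vehicle arrays. Of the 11, 10 had a ratio above 0 that passed the test in each group, where 19% of all genes did on the oxaliplatin arrays and 23.4% on the vehicle arrays, and 10 were well above background in Cy3 on every array. The Schwann cell list, with 7 of 8 measured, had a median ratio of 2.53 and 2.87 on the oxaliplatin arrays and 2.64 and 2.78 on the vehicle arrays.

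All 6 receptors were detected. In both Cy5 and Cy3, 44 of the 44 pairs of a receptor probe and an array were well above background by the scanner software's own flag. By array, 82.6% to 85.4% of all probes had the same flag in Cy5 and 76.8% to 88.1% in Cy3. No spot of a receptor probe was saturated, and 3 spot readings, all of a Cnr1 probe, were left out as outliers. On the brightest probe of each gene, detection was strong for Cnr1, Oprl1 and Oprd1 and weak for Cnr2, Oprk1 and Oprm1. The other Oprl1 probes were weak, with raw Cy5 signals at 1.98 to 2.35 times local background for A_43_P12591 and 2.03 to 2.83 times for A_64_P125150. The raw Cy5 signal of the Cnr1 probe with 10 spots was 284 and 311 times its local background on the oxaliplatin arrays, against 191 and 120 times on the vehicle arrays. For Oprk1 the same quotient was 2.36 and 2.64 on the oxaliplatin arrays and 2.37 and 2.01 on the vehicle arrays. The brightest probe of a gene, by mean signal, represents it below, and levels are not compared between probes.

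The comparison of the groups asks whether these receptors differ in the dorsal horn after oxaliplatin. On its representative probe every receptor had a lower mean ratio on the oxaliplatin arrays, by 0.067 to 0.36 on the log2 scale. With median centring in place of loess, Oprl1 lay 0.0067 higher. Probe A_64_P032062 of Oprm1 lay 0.055 higher and probe A_64_P125150 of Oprl1 0.17 higher, and the remaining probes lay lower. Of all genes 48.8% had a lower mean ratio. None of the 6 passed the test (limma, Benjamini-Hochberg over all genes, 0 of 22817 genes called, 0%). At an unadjusted p under 0.05, 1 of the 6 passed, Cnr1, where 5.85% of all genes passed in the lower direction and 14.6% in either. Which receptor did so moved with the normalisation. With median centring Oprk1 and Cnr2 passed at that level (limma unadjusted p = 0.0295 and 0.0216) and Cnr1 did not (0.405). With ratios scaled between arrays Oprk1 passed (0.0476) and Cnr1 did not (0.295), and with the scanner software's own log ratio none of the 6 did, with Cnr1 at 0.0541 and Oprm1 at 0.0553. For 5 of the 6 both oxaliplatin ratios lay below both vehicle ratios, and for Oprd1 the groups overlapped. Over all genes 22.2% lay apart in that direction, 27% in the other and 49.2% in either. The median difference of the 6 was -0.20, against 0.0055 over all genes tested. In bulk tissue fewer cells of a type and less RNA per cell cannot be told apart.

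**Figure D1:**
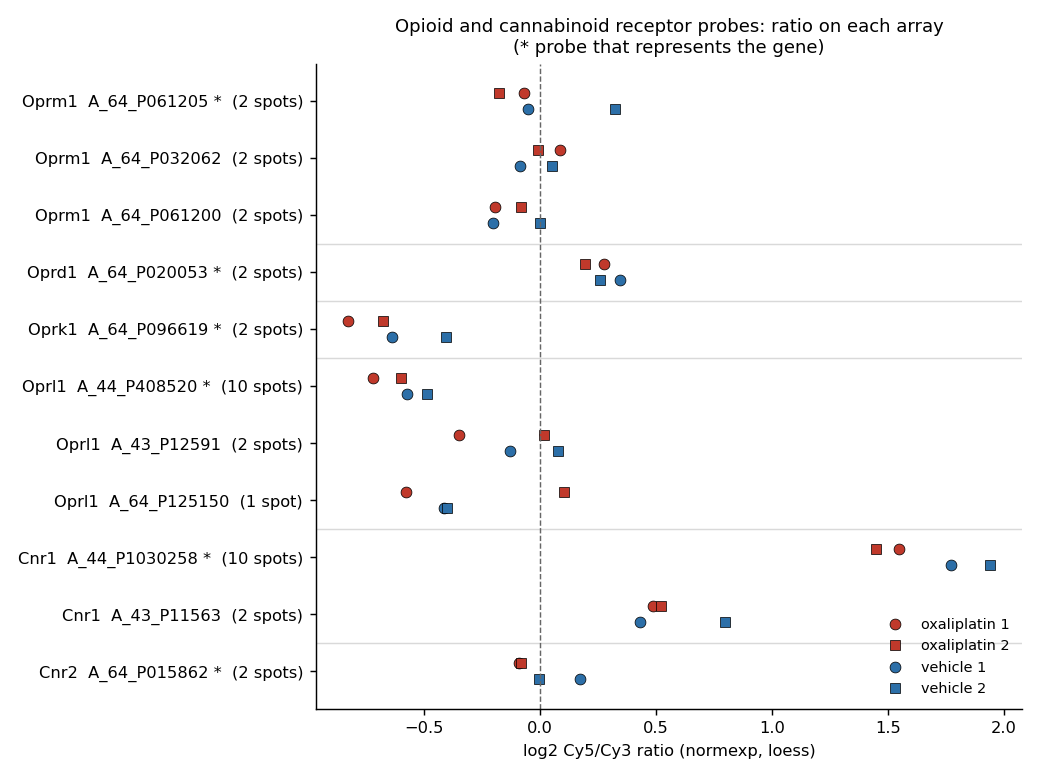
Log2 Cy5/Cy3 ratio (horizontal axis) of each of the 11 receptor probes on each array, red for oxaliplatin and blue for vehicle, with the probe that represents a gene starred. Cnr1 lies at 1.45 to 1.94 on its 10-spot probe but at 0.43 to 0.80 on its other probe, while Oprk1 and the 10-spot probe of Oprl1 lie below 0 on every array.

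Oprm1 was measured by 3 probes. Its representative probe A_64_P061205 (NM_001304740) had raw Cy5 signals of 310 and 334 on oxaliplatin replicates 1 and 2, against 326 and 284.5 on vehicle replicates 1 and 2. Raw Cy3 signals were 195.5 and 138 on the oxaliplatin arrays, against 219.5 and 131 on the vehicle arrays. After background correction and normalisation for dye, the log2 ratio was -0.070 and -0.18 on the oxaliplatin arrays, against -0.051 and 0.32 on the vehicle arrays. Both oxaliplatin ratios were lower, but vehicle replicate 1 lay close to them and vehicle replicate 2 stood apart. The difference was -0.26 ± 0.15 (SE, n = 2 arrays per group, 95% interval -0.62 to 0.11, limma adjusted p = 0.465). Without vehicle replicate 2 it was -0.073, and without vehicle replicate 1 it was -0.45. It was -0.61 with the scanner software's own log ratio and -0.40 with plain background subtraction, but -0.080 as the mean over probes. The other probes did not show the difference. Probe A_64_P032062 (NM_001038599) had ratios of 0.086 and -0.010 on the oxaliplatin arrays, against -0.084 and 0.051 on the vehicle arrays. Probe A_64_P061200 (NM_001038597) had -0.20 and -0.080 on the oxaliplatin arrays, against -0.20 and -0.0016 on the vehicle arrays. Their differences were 0.055 and -0.036, and the groups overlapped on both. Of all genes with several probes, 44.8% had probes that differed in the sign of the difference.

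Oprd1 had 1 probe on 2 spots, A_64_P020053 (NM_012617). Its log2 ratio was 0.28 and 0.19 on the oxaliplatin arrays, against 0.34 and 0.26 on the vehicle arrays. The ratios were above 0 on all 4 arrays, and the groups overlapped. The difference was -0.067 ± 0.12 (SE, n = 2 arrays per group, 95% interval -0.34 to 0.21, limma adjusted p = 0.821). Single channels differed more than the ratio. The normalised log2 Cy5 signal was 9.63 and 9.62 on the oxaliplatin arrays, against 10.25 and 10.66 on the vehicle arrays. In Cy3 it was 9.36 and 9.43 on the oxaliplatin arrays, against 9.90 and 10.40 on the vehicle arrays. Both dyes were thus dimmer on both oxaliplatin arrays, by 0.82 ± 0.16 in Cy5 and 0.76 ± 0.21 in Cy3 (SE, n = 2 arrays per group, limma adjusted p = 0.162 and 0.174, not called). The Cy3 RNA was untreated on all 4 arrays, per the labels. The duplicate spots of this probe also lay far apart on the oxaliplatin arrays. Their raw Cy5 signals were 703 and 1809 on oxaliplatin replicate 1 and 800 and 1661.5 on replicate 2, against 1816 and 1370 on vehicle replicate 1 and 2039.5 and 2533 on replicate 2. Cy3 followed, with spots differing 2.50-fold and 2.07-fold on the oxaliplatin arrays and 1.27-fold and 1.21-fold on the vehicle arrays. The ratios of the same spots stayed close, with an SD over spots of 0.026 and 0.068 on the oxaliplatin arrays and 0.041 and 0.018 on the vehicle arrays.

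Oprk1 had 1 probe on 2 spots, A_64_P096619 (NM_017167), close to background. Its raw Cy5 signals were 154 and 171.5 on the oxaliplatin arrays, against 155.5 and 133.5 on the vehicle arrays. The log2 ratio was -0.83 and -0.68 on the oxaliplatin arrays, against -0.64 and -0.40 on the vehicle arrays. Cy5 was below Cy3 on all 4 arrays, most so on oxaliplatin replicate 1, and the groups did not overlap. The groups differed by -0.23 ± 0.13 (SE, n = 2 arrays per group, 95% interval -0.55 to 0.088, limma adjusted p = 0.457). With median centring the difference was -0.44, and with the scanner software's own log ratio -0.36. Both dyes were brighter on the oxaliplatin arrays after normalisation, by 0.22 ± 0.076 in Cy5 and 0.45 ± 0.16 in Cy3 on the log2 scale (SE, n = 2 arrays per group, limma adjusted p = 0.232 and 0.212). That Cy3 differed more than Cy5 follows from the lower ratio and is not a further result.

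Oprl1, the nociceptin receptor, had 3 probes with the same accession (NM_031569). The probe A_44_P408520, printed on 10 spots, had raw Cy5 signals of 1797 and 1899 on the oxaliplatin arrays, against 1701 and 2061 on the vehicle arrays. Its log2 ratio was -0.72 and -0.60 on the oxaliplatin arrays, against -0.57 and -0.49 on the vehicle arrays. All 4 were below 0, and oxaliplatin replicate 2 lay close to vehicle replicate 1. The difference was -0.13 ± 0.12 (SE, n = 2 arrays per group, 95% interval -0.41 to 0.15, limma adjusted p = 0.632). It was 0.0067 with median centring in place of loess. Over its 10 spots the ratio had an SD of 0.052 and 0.041 on the oxaliplatin arrays, against 0.085 and 0.042 on the vehicle arrays. The weaker probe A_43_P12591 had ratios of -0.35 and 0.018 on the oxaliplatin arrays, against -0.13 and 0.077 on the vehicle arrays. The single-spot probe A_64_P125150 had -0.58 and 0.10 on the oxaliplatin arrays, against -0.41 and -0.40 on the vehicle arrays. Their differences were -0.14 and 0.17, so the probes of Oprl1 differed in sign. On these 2 probes the gap between the oxaliplatin arrays was wider than the gap between the group means.

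Cnr1 had the largest difference of the 6 receptors with the processing used above, but not under every alternative. Among others, that of Cnr2 was larger with median centring, and that of Oprm1 with the scanner software's own log ratio. The Cnr1 probe A_44_P1030258 (NM_012784), printed on 10 spots, had raw Cy5 signals of 18546 and 20293 on the oxaliplatin arrays, against 12575 and 7679 on the vehicle arrays. Raw Cy3 signals were 2766 and 1818 on the oxaliplatin arrays, against 2154 and 1096 on the vehicle arrays. The log2 ratio was 1.55 and 1.45 on the oxaliplatin arrays, against 1.77 and 1.94 on the vehicle arrays. Both oxaliplatin ratios lay below both vehicle ratios, although both of its Cy5 signals were brighter. The difference in the ratio was -0.36 ± 0.12 (SE, n = 2 arrays per group, 95% interval -0.65 to -0.065, limma adjusted p = 0.308, not called). Its unadjusted p was 0.0238 by limma. Leaving out 1 array at a time gave -0.44 to -0.27. It was -0.14 with median centring and -0.13 with ratios scaled between arrays. By channel the oxaliplatin arrays were brighter, by 0.73 ± 0.29 in Cy5 and 1.09 ± 0.33 in Cy3 on the log2 scale (SE, n = 2 arrays per group, limma adjusted p = 0.259 and 0.188, not called). That the difference in Cy3 was the larger follows from the lower ratio, as for Oprk1.

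The other Cnr1 probe, A_43_P11563, carries the same accession and 2 spots. Its raw Cy5 signals were 2987 and 3172 on the oxaliplatin arrays, against 2925 and 3377 on the vehicle arrays. The groups overlapped there. Its log2 ratios were 0.49 and 0.52 on the oxaliplatin arrays, against 0.43 and 0.80 on the vehicle arrays, with a difference of -0.11 ± 0.15 (SE, n = 2 arrays per group, limma adjusted p = 0.758 over all probes). Single-channel differences of this probe were -0.20 in Cy5 and -0.085 in Cy3, opposite in sign to those of the 10-spot probe. Within each array the ratios of the 10-spot probe's spots ran over less than the difference between its group means. Its spots ran over 1.51 to 1.64 and 1.29 to 1.51 on the oxaliplatin arrays, against 1.68 to 1.86 and 1.87 to 2.03 on the vehicle arrays. Spots of an array share its RNA and are not replicates of the group. Both probes thus gave a lower mean ratio on the oxaliplatin arrays, but only the 10-spot probe kept the groups apart.

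**Figure D2:**
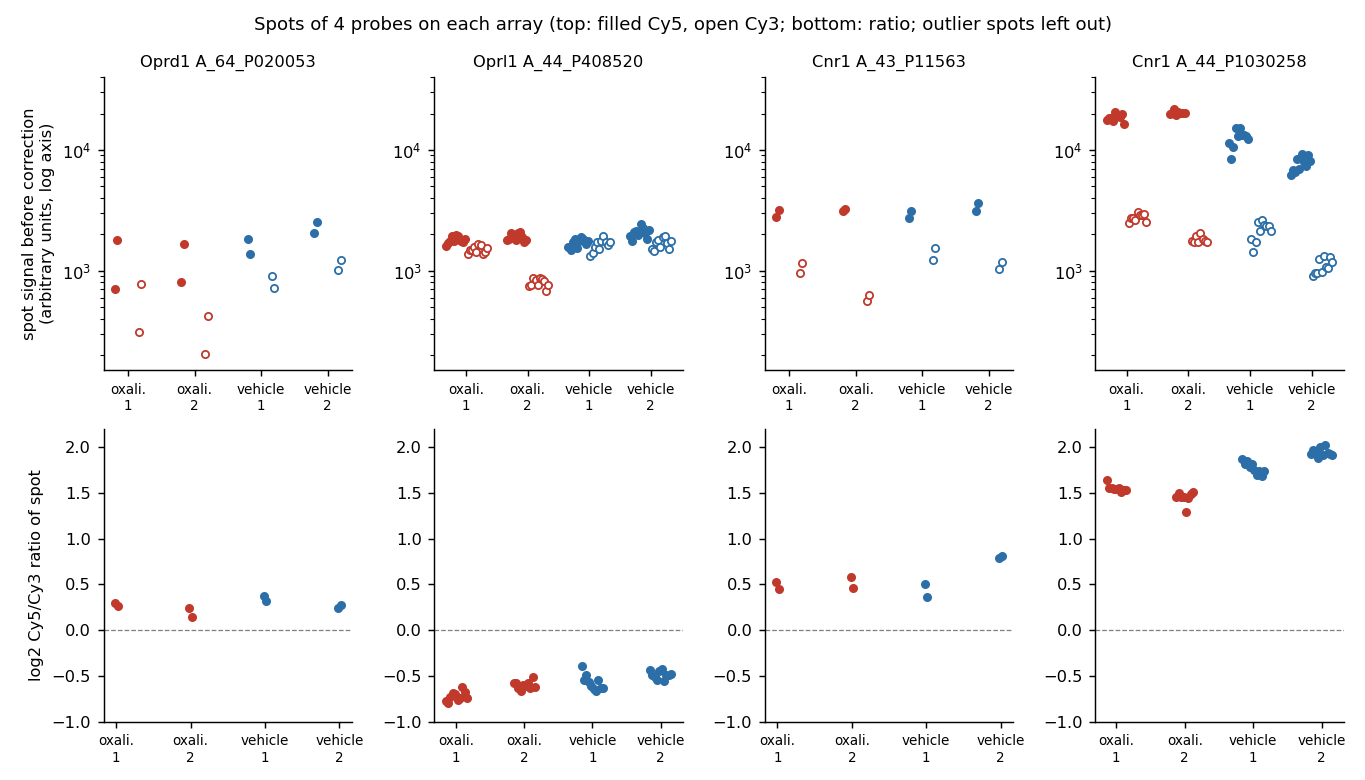
Spots of 4 receptor probes on each array, red for oxaliplatin and blue for vehicle, with the signal before correction above (log axis, filled Cy5, open Cy3) and the log2 ratio below. Spots of Oprd1 differ 2.57-fold and 2.08-fold in Cy5 on the oxaliplatin arrays yet share their ratios, and both dyes of the 10-spot Cnr1 probe are lowest on vehicle replicate 2.

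Cnr2 had 1 probe on 2 spots, A_64_P015862 (NM_001164143). Its raw Cy5 signals were 168 and 181 on the oxaliplatin arrays, against 270 and 264 on the vehicle arrays. The log2 ratio was -0.090 and -0.080 on the oxaliplatin arrays, against 0.17 and -0.0044 on the vehicle arrays. All ratios were near 0, with vehicle replicate 1 the highest, and the groups did not overlap. The difference was -0.17 ± 0.12 (SE, n = 2 arrays per group, 95% interval -0.46 to 0.12, limma adjusted p = 0.542). It was -0.50 with median centring, -0.40 with the scanner software's own log ratio and -0.28 with plain background subtraction, all past 1.5 times that size. The duplicate spots on oxaliplatin replicate 1 had ratios of -0.38 and 0.20, further apart than the group means. Normalised signals were lower on both oxaliplatin arrays, by 0.47 ± 0.076 in Cy5 and 0.30 ± 0.16 in Cy3 on the log2 scale (SE, n = 2 arrays per group, limma adjusted p = 0.146 and 0.321, not called). For microglia, a cell type known to carry Cnr2, 9 of 10 listed markers were measured. Their median ratio was -0.49 and 0.086 on the oxaliplatin arrays, against -0.16 and -0.24 on the vehicle arrays, and 0 of the 9 differed between groups by the test. Their summed signal in Cy5 was 54451 and 54890 on the oxaliplatin arrays and 57664 and 55278 on the vehicle arrays, and the part of microglia in the Cnr2 values was not tested.

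**Figure D3:**
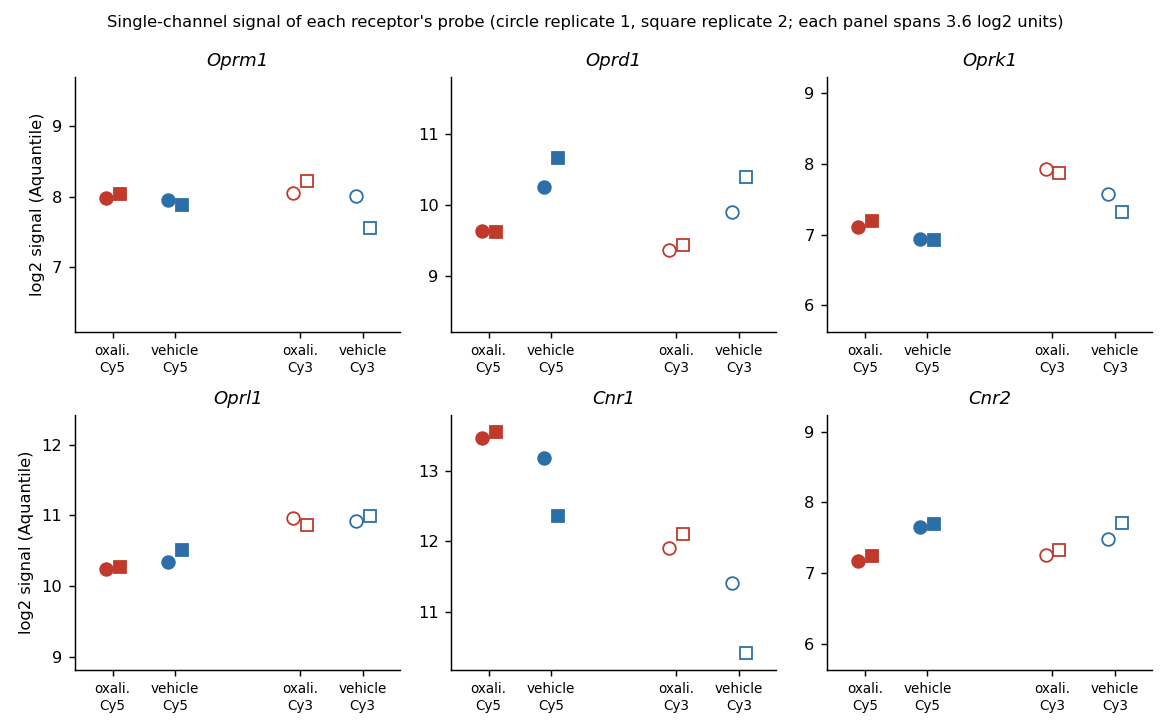
Normalised log2 signal of each receptor's representative probe by channel, red for oxaliplatin and blue for vehicle, filled for Cy5 and open for Cy3, with circles for replicate 1 and squares for replicate 2. Oprd1 and Cnr2 are lower, and Oprm1, Oprk1 and Cnr1 higher, on both oxaliplatin arrays in both dyes.

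The channels taken alone split the receptors in another way than the ratio did. On the representative probes the groups lay apart in Cy5 for all 6, with Oprm1, Oprk1 and Cnr1 above and Oprd1, Oprl1 and Cnr2 below on the oxaliplatin arrays. Over all genes 29.6% lay above, 30.2% below and 59.8% either way in Cy5. In Cy3, labelled as untreated RNA on all 4 arrays, the same directions held for 5 of the 6, with Oprl1 overlapping, where 26.9% of all genes lay above, 31.3% below and 58.1% either way. None passed the test in either channel (limma, 0 of 22817 genes called, 0%, in each). The differences not yet given were 0.092 in Cy5 and 0.35 in Cy3 for Oprm1, and -0.17 and -0.042 for Oprl1. The other probes of both genes went the other way. For Oprm1 they differed by -0.15 and -0.054 in Cy5 and by -0.20 and -0.018 in Cy3. For Oprl1 they differed by 0.021 and 0.25 in Cy5 and by 0.16 and 0.085 in Cy3.

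Within a group the ratio sets the Cy5 RNA against the Cy3 RNA. Without a swap of dyes, an effect of dye and a difference in RNA cannot be told apart. That limit holds for every ratio set against 0 here and below. Cnr1 was 2.82-fold higher in Cy5 than in Cy3 on the oxaliplatin arrays and 3.62-fold higher on the vehicle arrays, with log2 ratios of 1.50 ± 0.087 and 1.86 ± 0.087 (SE, n = 2 arrays per group, limma adjusted p = 7.0e-05 and 2.9e-05). Such calls were common. A ratio above 0 was called for 19% of all genes on the oxaliplatin arrays and for 23.4% on the vehicle arrays, and a ratio below 0 for 15.8% and 22.1%. On the second Cnr1 probe the ratios were 0.51 and 0.62 and passed too (limma adjusted p = 0.0129 and 0.00424 over all probes, where 18.3% and 22.6% of probes did so upwards). Averaged over both probes, Cnr1 stood at 1.00 on the oxaliplatin and 1.24 on the vehicle arrays. Among all genes 15.3% were called above 0 in both groups, as Cnr1 was, and 12.3% below 0 in both, as Oprk1 and Oprl1 were. Without regard to a test, 34% had ratios above 0 on all 4 arrays, as Cnr1 and Oprd1 did, and 27.6% below 0, as Oprk1 and Oprl1 did.

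Oprk1 was 1.68-fold lower in Cy5 on the oxaliplatin arrays and 1.43-fold lower on the vehicle arrays, with log2 ratios of -0.75 ± 0.095 and -0.52 ± 0.095 (SE, n = 2 arrays per group, limma adjusted p = 0.00163 and 0.00485). With the scanner software's own log ratio these were -1.40 and -1.04, and without vehicle replicate 1 the vehicle call was lost at -0.40. Oprl1 was 1.58-fold lower in Cy5 on the oxaliplatin arrays and 1.44-fold lower on the vehicle arrays (log2 ratios -0.66 ± 0.083 and -0.53 ± 0.083, SE, n = 2 arrays per group, limma adjusted p = 0.00164 and 0.00273). With the mean over its 3 probes these were -0.35 and -0.32, and the vehicle call was lost (adjusted p = 0.0506). For Oprd1 the ratio was 0.23 ± 0.082 on the oxaliplatin arrays, which did not pass, and 0.30 ± 0.082 on the vehicle arrays, which did (SE, n = 2 arrays per group, limma adjusted p = 0.0648 and 0.0228). The vehicle call was lost under 5 of 15 alternatives and an oxaliplatin call was gained under 2. The difference between the groups did not pass the test. Oprm1 and Cnr2 had mean ratios of -0.12 and -0.085 on the oxaliplatin arrays and of 0.14 and 0.084 on the vehicle arrays, and none of these was called (limma adjusted p = 0.340 to 0.471). With median centring the oxaliplatin ratio of Cnr2 was -0.45 and was called (limma adjusted p = 0.0173).

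By mean ratio of the representative probes, the receptors ran on the oxaliplatin arrays in the order Cnr1, Oprd1, Cnr2, Oprm1, Oprl1 and Oprk1. The arrays overlapped between Cnr2 and Oprm1 and between Oprl1 and Oprk1. On the vehicle arrays the order was Cnr1, Oprd1, Oprm1, Cnr2, Oprk1 and Oprl1. There Oprd1 overlapped Oprm1, Oprm1 overlapped Cnr2 and Oprk1 overlapped Oprl1. On its 10-spot probe Cnr1 stood apart from the other 5 on all 4 arrays. It lay at the 98.3 percentile of all genes on the oxaliplatin and the 98.9 percentile on the vehicle arrays. The order and the percentiles depend on the probe. The second Cnr1 probe had mean ratios of 0.51 on the oxaliplatin and 0.62 on the vehicle arrays. The weaker Oprl1 probes had -0.16 and -0.24 on the oxaliplatin arrays, against -0.026 and -0.41 on the vehicle arrays. The median of the sensory ganglion markers lay above Cnr1, as given above, though not every marker did. Opioid and cannabinoid receptors also sit on the endings of sensory fibres, as given above. The part of ganglion RNA in these ratios was not tested.

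The ligands came next. Of the 4 genes for opioid peptide precursors, all were measured and 0 passed the test, with 2 differences above and 2 below 0 and a median of 0.077 on the log2 scale, against 0.0055 over all genes. Penk, the precursor of the enkephalins, had ratios of -1.34 and -1.21 on the oxaliplatin arrays, against -1.36 and -1.53 on the vehicle arrays, and differed by 0.17 ± 0.13 (SE, n = 2 arrays per group), or by -0.012 with ratios scaled between arrays. Cy5 lay well below Cy3 for Penk on all arrays, and the ratio was called in both groups (limma adjusted p = 0.00015 on the oxaliplatin arrays and 7.7e-05 on the vehicle arrays). Pdyn, the precursor of dynorphins, had ratios of -0.23 and -0.53 on the oxaliplatin arrays, against -0.15 and 0.013 on the vehicle arrays, a difference of -0.31 ± 0.14 (SE, n = 2 arrays per group). Pomc, the precursor of beta-endorphin, differed by 0.29 ± 0.16, and Pnoc, the precursor of nociceptin, by -0.016 ± 0.15 (SE, n = 2 arrays per group), or by 0.11 with median centring. Adjusted p for the 4 differences ran over 0.380 to 0.973 (limma).

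Enzymes that cut opioid peptides from their precursors or break them down were all measured, 7 of 7. Of these, 4 differences were above and 3 below 0, and at an unadjusted p under 0.05 there were 0 higher and 1 lower, where 8.79% of all genes passed higher and 5.85% lower. Ece1, a protease that cuts peptides in endosomes, differed by -0.46 ± 0.19. Pcsk2, a convertase of secretory granules, differed by 0.29 ± 0.14, and Cpe, which trims peptide ends, by 0.22 ± 0.14 (SE, n = 2 arrays per group, limma adjusted p = 0.339, 0.388 and 0.475). For Ece1 the ratios were 0.34 and -0.12 on the oxaliplatin arrays, against 0.40 and 0.74 on the vehicle arrays, with oxaliplatin replicate 1 close to vehicle replicate 1.

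The enzymes of endocannabinoid synthesis and breakdown held the 2 largest differences of the 7 pathway lists, though none passed the test. Of 11 measured (of 12 listed, Faah was not analysed here), 6 differences were above and 5 below 0. At an unadjusted p under 0.05 there were 4 higher and 1 lower, where 8.79% of all genes passed higher and 5.85% lower. The median difference was 0.23. Mgll, which breaks down the endocannabinoid 2-arachidonoylglycerol, had ratios of 0.78 and 1.18 on the oxaliplatin arrays, against 0.40 and 0.12 on the vehicle arrays. Both oxaliplatin ratios were higher, with a difference of 0.73 ± 0.17 (SE, n = 2 arrays per group, limma adjusted p = 0.294). Naaa, a lysosomal enzyme that breaks down acylethanolamides, had ratios of -0.15 and 0.020 on the oxaliplatin arrays, against -0.55 and -0.67 on the vehicle arrays. It differed by 0.55 ± 0.12. Abhd4, an enzyme of acylethanolamide synthesis, had ratios of 0.35 and 0.84 on the oxaliplatin arrays, against -0.022 and -0.15 on the vehicle arrays, and differed by 0.68 ± 0.18 (SE, n = 2 arrays per group, limma adjusted p = 0.294 for both). Without oxaliplatin replicate 1 the differences of Mgll and Abhd4 were 0.92 and 0.92 and passed the test, where 930 genes did. The lone oxaliplatin array is then assumed to vary as the vehicle pair does. By channel Mgll differed by -0.15 in Cy5 and -0.88 in Cy3, Abhd4 by -0.080 and -0.76, and Naaa by 0.018 and -0.53. For each of the 3 the larger difference was in Cy3, labelled as untreated RNA. Mgll is known from astrocytes as well as neurons. Of the 8 astrocyte markers, all measured, 7 differences were above 0 and the median ratio was -0.85 and -0.52 on the oxaliplatin arrays, against -1.15 and -1.34 on the vehicle arrays. Of the 9 oligodendrocyte markers, 8 were above 0, with a median ratio of -1.35 and -1.04 on the oxaliplatin arrays and -1.68 and -1.50 on the vehicle arrays. The part of glial RNA in the enzyme values was not tested.

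For the G protein subunits that these receptors use, 11 of 12 listed genes were measured, Gng2 not being analysed here. Of them 8 differences were above and 3 below 0, with a median of 0.27, and 2 were higher and 0 lower at an unadjusted p under 0.05. Of all genes 8.79% passed higher at that level and 5.85% lower. Gng3, a gamma subunit of neurons, differed by 0.48 ± 0.12, the beta subunit Gnb2 by 0.45 ± 0.14 and the inhibitory alpha subunit Gnai1 by 0.45 ± 0.19 (SE, n = 2 arrays per group, limma adjusted p = 0.294, 0.305 and 0.344). In single channels the list's median differed by -0.049 in Cy5 and -0.27 in Cy3. For both oxaliplatin ratios to lie above both vehicle ratios was the case in 8 of the 11, where 27% of all genes did so.

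Regulators that switch the receptors off or carry them, such as receptor kinases, arrestins and RGS proteins, were all measured, 17 of 17. Here 12 differences were above and 5 below 0, with 4 higher and 0 lower at an unadjusted p under 0.05, where 8.79% of all genes passed higher and 5.85% lower, and a median of 0.18. Rgs11 and Rgs7, which speed the shutdown of Gi/o proteins, differed by 0.55 ± 0.15 and 0.33 ± 0.13, and Wls, a Wnt carrier reported to bind the mu receptor, by 0.42 ± 0.15 (SE, n = 2 arrays per group, limma adjusted p = 0.294, 0.334 and 0.308). Effectors, the channels, cyclases and kinases downstream, were measured for 16 of 16 genes. Of these, 6 differences were above and 10 below 0, with 2 higher and 1 lower at an unadjusted p under 0.05 and a median of -0.048. Mapk3, the kinase ERK1, differed by 0.42 ± 0.12, Adcy3, an adenylyl cyclase, by 0.41 ± 0.15 and Cacna1b, the pore of the N-type calcium channel of nerve endings, by -0.37 ± 0.13 (SE, n = 2 arrays per group, limma adjusted p = 0.296, 0.308 and 0.308). For Cacna1b the ratios were 0.43 and 0.22 on the oxaliplatin arrays, against 0.64 and 0.74 on the vehicle arrays.

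**Figure D4:**
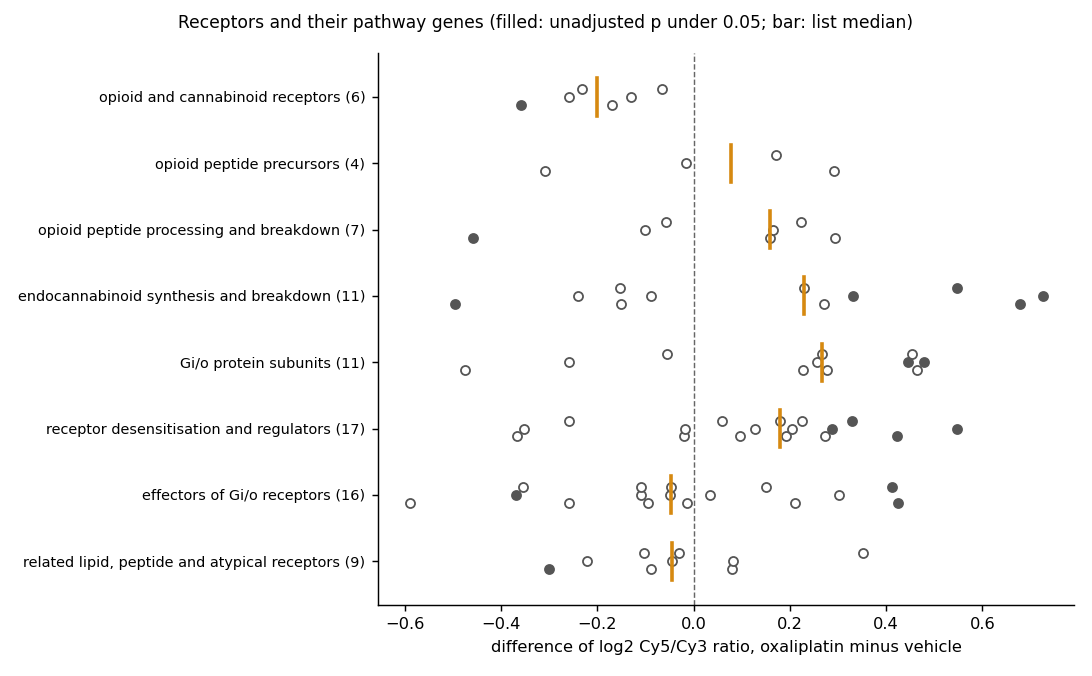
Difference of the log2 Cy5/Cy3 ratio, oxaliplatin minus vehicle, for each measured gene of the receptors and 7 pathway lists, filled where the unadjusted p is under 0.05, with a bar at each list's median. The receptors lie between -0.36 and -0.067 with a median of -0.20, and the G protein list has its median at 0.27.

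Among related receptors that bind lipids or opioid-like peptides, 9 of 12 listed were measured. Gpr55 was not analysed here, and Gpr119 and Npffr2 were too dim. Of the 9, 3 differences were above and 6 below 0, with a median of -0.045 and 0 higher and 1 lower at an unadjusted p under 0.05. Of all genes 8.79% passed higher at that level and 5.85% lower. Ogfrl1, a relative of the opioid growth factor receptor, differed by -0.30 ± 0.12, Ogfr, that receptor itself, by 0.35 ± 0.18, and Gpr18, a lipid-binding receptor, by -0.22 ± 0.19 (SE, n = 2 arrays per group, limma adjusted p = 0.337, 0.402 and 0.611). Mrgprx1, a receptor of sensory neurons that binds fragments of proenkephalin, was well above background in Cy5 on all 4 arrays and in Cy3 on 0. Its normalised Cy5 signal was 1.33-fold that of Cy3 on the oxaliplatin arrays and 1.37-fold on the vehicle arrays (limma adjusted p = 0.0093 and 0.0043). The lowest Cy3 signal well above background was no higher than this probe's own Cy3 value. These are therefore plain ratios and not lower limits, and they are open to dye bias without swaps.

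The marker lists give the setting of these values. Of the 20 dorsal horn neuron markers, 11 differences were above and 9 below 0, with 2 higher and 1 lower at an unadjusted p under 0.05 and a median of 0.024. Of all genes 8.79% passed higher at that level and 5.85% lower. Reln, a secreted protein of superficial neurons, differed by 0.39 ± 0.12 and Slc6a5, the glycine transporter of inhibitory neurons, by -0.43 ± 0.15 (SE, n = 2 arrays per group, limma adjusted p = 0.300 and 0.308). Of the 11 sensory ganglion markers, 3 differences were above and 8 below 0 with a median of -0.14, and of the 7 Schwann cell markers 3 were above and 4 below with a median of -0.12. Runx1, a transcription factor of pain-sensing neurons, differed by -0.21 ± 0.12 and Calca, their CGRP precursor, by -0.81 ± 0.74 (SE, n = 2 arrays per group, limma adjusted p = 0.454 and 0.636). Calca spread widely, with ratios of 5.62 and 3.92 on the oxaliplatin arrays, against 4.54 and 6.63 on the vehicle arrays. The peripheral myelin genes Ncmap and Prx differed by -0.37 ± 0.19 and -0.13 ± 0.15 (SE, n = 2 arrays per group, limma adjusted p = 0.408 and 0.732). With ratios scaled between arrays Prx turned to 0.17. Of the microglia markers, 5 differences were above and 4 below 0, with a median of 0.11. Csf1r, the receptor that keeps microglia alive, differed by -0.23 ± 0.13 and the lysosomal gene Cd68 by -0.35 ± 0.20 (SE, n = 2 arrays per group, limma adjusted p = 0.445 and 0.446). A second Csf1r probe differed by 0.25. Lymphocyte and blood cell markers were measured for 8 of 13 genes, with 3 differences above and 5 below 0 and a median of -0.027. The astrocyte and oligodendrocyte lists had larger median differences, 0.42 and 0.36. In each of these lists 4 genes were higher and 0 lower at an unadjusted p under 0.05, and 0 passed the test.

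Genes whose 4 ratios lay nearest to those of a receptor were sought among 13783 genes with a symbol that stand in none of the lists, by Euclidean distance over the 4 arrays. For Cnr1 they were Tceal7 at 0.12 and Plppr4 at 0.18. For Oprd1 they were Or4a71 at 0.016 and Pkd2l2 at 0.030, and for Cnr2 Kif18a at 0.038 and Rplp1l1 at 0.069. Oprm1 lay nearest to Rps16 at 0.077 and Fstl5 at 0.087, Oprk1 to Disp2 at 0.079 and Rnase12 at 0.093, and Oprl1 to Tmem170b at 0.073 and Sppl2b at 0.088. The distances, in log2 units, rest on 4 arrays only. Those of Cnr1 were the longest of the 6, and Tceal7 had ratios of 1.51 and 1.49 on the oxaliplatin arrays, against 1.71 and 1.85 on the vehicle arrays.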

How the data were processed

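Total RNA of the dorsal horn was read on 4 Agilent 2-colour arrays. Groups and replicate numbers came from the sample titles. Per the file headers, the deposited files give, per spot, signal and background intensity as medians over pixels, Agilent's processed intensity and a log10 ratio of Cy5 over Cy3, with flags as other values. The version of Agilent Feature Extraction was 10.7.1.1 per the file headers, but 8.5.1.1 per the submitters' processing notes. The value table deposited by the authors matched these log10 ratios by spot number within 0.00500 and has the same direction and scale. Column medians of that table were -0.00277 and 0 (oxaliplatin arrays) and -0.00492 and -0.00316 (vehicle arrays). Each array had 62976 spots, of which 4259 were controls.

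Background was corrected with normexp (offset 50) and log2 ratios were normalised by loess in limma 3.58.1 under R 4.3.3. Controls and outlier spots were left out, spots of a probe averaged, and 25998 probes kept for having Cy5 well above background on 2 arrays or more. They were named by unversioned accession through RefSeq and gave 22817 genes, of which 13936 had a symbol. The rest kept the identifier printed with the probe. Each such identifier counts as a gene in the shares of all genes and in the adjustment. The probe with the highest mean signal stood for a gene. Single channels were normalised by Aquantile. The groups were compared, and each ratio tested against 0, by lmFit and eBayes (two-sided, 2 residual and 4.74 prior degrees of freedom). Benjamini-Hochberg adjustment ran over all genes, with a threshold of 0.05. The fit was first tested on simulated data.

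The receptors, the 169 list genes and the tests were chosen with earlier results of these data known, and no list was tested as a set. Named were the receptors with every probe, all genes of lists of 4 or fewer, the 3 with the smallest unadjusted p of longer described lists, list genes above background in 1 channel only, and the 2 nearest genes of each receptor, less 4 list genes not reported here. Same-numbered arrays did not deviate together (correlation of deviations -0.22) and the labels do not pair them. Positions and probe sequences were not used here.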

Additional observations from a re-analysis of the deposited data

Results flagged for a closer look

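For 3 of the list genes named above the ratio was above 0 on both oxaliplatin arrays and below 0 on both vehicle arrays. They are Abhd4 (difference 0.68), Wls (0.42) and Reln (0.39), all on the log2 scale. The difference itself did not pass for any of them (limma adjusted p = 0.294, 0.308 and 0.300). Of the other list genes 4 had the same signs, Abhd6, Gnai2, Gnb5 and Pax2, named here after their values were seen. Over all genes 27% had both oxaliplatin ratios above both vehicle ratios, whatever their sign. None of the 11 receptor probes showed opposite signs on all arrays.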

How the results depend on the processing

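No receptor passed in the difference of ratios under any of the 17 alternatives to it, where the smallest adjusted p was 0.125, for Cnr1 (limma). The count of genes called in the difference was 0 and became 3 with the replicate block (the labels give no pairing), 537 with the crossed replicate block, chosen after seeing the data, and 2 to 930 with 1 array left out, highest without oxaliplatin replicate 1. It stayed at 0 with the remaining alternatives, among them Cy5 and Cy3 alone and quantile normalisation within a channel, also added later, with 2542 to 4833 genes at an unadjusted p under 0.05. Under the crossed replicate block Mgll, Abhd4 and Calca passed at 0.73, 0.68 and -0.81. Rgs11 (0.73), Mgll (0.92) and Abhd4 (0.92) passed without oxaliplatin replicate 1, with the lone array assumed to vary as the vehicle pair does. Genes called against 0 numbered 7940 on the oxaliplatin arrays (12195 with median centring, 5540 to 7897 with 1 array left out) and 10382 on the vehicle arrays (4978 to 12113 with 1 array left out, lowest without a vehicle array). Of the vehicle calls 51.4% were higher, and 63.4% with median centring, but 42.3% with the scanner's log ratio and with the authors' value table.

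On the representative probes, the receptor whose difference of ratios changed sign was Oprl1, with median centring (0.0067). On other probes the sign differed for Oprm1 (A_64_P032062, 0.055) and Oprl1 (A_64_P125150, 0.17). Oprm1, Oprk1 and Cnr1 were higher in Cy5 alone (0.092, 0.22 and 0.73) and in Cy3 alone (0.35, 0.45 and 1.09). A single channel measures another quantity, as the difference of ratios is the Cy5 difference less the Cy3 difference. Vehicle ratios of Cnr2 and Oprm1 ran over -0.0044 to 0.17 and -0.051 to 0.32 with 1 array left out. Oprd1 lost its vehicle call with the authors' value table and with the scanner's log ratio (0.21 in both), plain subtraction (0.31) and without either vehicle array, and gained an oxaliplatin call with median centring (0.31) and scaled ratios (0.25). Cnr2 gained an oxaliplatin call with median centring (-0.45). Other changes of sign were Prx, a peripheral myelin gene (-0.13, against 0.34 with the scanner's log ratio, 0.17 with scaled ratios and 0.33 with the value table), Mrgprx1 (0.075 with the scanner's log ratio, 0.071 with the value table, 0.013 with scaled ratios and 0.035 without background correction), Pnoc with median centring (0.11), Penk with scaled ratios (-0.012) and Csf1r with the mean over probes (0.0065). With 1 array left out Pnoc ran over -0.19 to 0.16, Prx over -0.32 to 0.070, Gpr18 over -0.50 to 0.058 and Calca over -1.85 to 0.23. The cause of these changes was not tested. Weak signal limits Oprk1, Cnr2, Oprm1 and the dimmer probes of Oprl1, and 2 arrays per group limit all.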
